A study of Mus musculus with 22 samples.

Results

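The mitochondrial respiratory chain genes described here are 84 nuclear genes whose symbols mark them as subunits, or close relatives of subunits, of complexes I to V. They were chosen by name alone, from symbols beginning with Nduf and a subunit letter, Sdha to Sdhd, and symbols beginning with Uqcr, Cox4 to Cox8 or Atp5. All 84 were found in both expression tables of the study, among 24063 genes in the first table and 24019 in the second. By name, 37 belonged to complex I, 4 to complex II, 8 to complex III, 18 to complex IV and 17 to complex V. The names do not follow function in every case. Ndufa4 carries a complex I name but its product works in complex IV, Atp5s encodes a coupling factor, Atp5sl an assembly factor of complex I, and Cox7a2l a protein that joins complexes III and IV. The subunits encoded by mitochondrial DNA were not analysed here.

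Complexes I to IV sit in the inner mitochondrial membrane and pass electrons from NADH and succinate to oxygen, pumping protons at complexes I, III and IV. Complex V, the ATP synthase, lets the protons flow back and makes ATP. Hepatocytes are rich in mitochondria, and the nuclear genes of the chain are known to be transcribed together under factors such as NRF1, the ETS-family factor GABP and YY1. Several subunits of complex IV exist as paired isoforms, a common form found in liver and another form typical of heart and skeletal muscle, brown fat, lung or testis.

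The study sequenced total RNA prepared with a TruSeq kit, in bulk, from 22 liver tumours of untreated C57BL/6 mice. Plasmids were delivered to the liver by hydrodynamic tail-vein injection, a fast injection of a large volume that brings DNA into hepatocytes. Every tumour was made with MYC, so no group lacks it. The tumours also carried luciferase, either plain (luc) or fused to model antigens (lucOS), and a second oncogenic event, either p53 loss or β-catenin (named bcat or CTNNB1 in the labels). In set 1, p53 loss was combined with luc in 3 tumours and with lucOS in 3, and β-catenin with luc in 4 and with lucOS in 2. In set 2 there were 3 luc and 3 lucOS tumours with β-catenin and 4 lucOS tumours with p53 loss, and its sample titles give the p53 arm as sgp53. Age and sex are not labelled. Whether any animal gave more than 1 tumour is not stated either, so p-values measure only the spread between samples, which may be technical. In set 2 the names of all β-catenin tumours but only 1 of the 4 p53 tumours begin with JAX, and the labels do not say what the prefix marks.

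Total reads over genes ranged from 33.706 to 54.873 M per tumour in set 1 and from 33.551 to 50.116 M in set 2. Trp53 checked the p53 label. Its normalized value (the unit is explained below) was 1423 to 2280 in the 6 p53 tumours of set 1 against 3296 to 4994 in the β-catenin tumours, and 1345 to 2223 against 2631 to 4405 in set 2, with no overlap. The hepatocyte marker Alb reached at least 70110 in every tumour.

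The promoters of the chain were searched for the sequence motifs of its known regulators. RefSeq windows of the GRCm38.p6 assembly (the mm10 build), from 250 bases before to 50 after the transcription start, were found for 69 of the 84 genes. The motifs, searched on both strands, were GCGCATGC (NRF1), CCGGAAG (ETS family, which includes GABP), AAGATGGCG (YY1) and CACGTG (the E-box, bound by MYC with MAX). Matches may overlap, as the NRF1 pair of Cox6a1 does. NRF1 letters were present for 10 of 69 chain genes (14.5%) against 3.05% of all 27025 genes with a window, ETS letters for 16 (23.2%) against 9.93%, YY1 letters for 8 (11.6%) against 1.64%, and E-box letters for 7 (10.1%) against 8.09%. In all, 33 of the 69 held at least 1 of the 4. A match is a description of letters and not of binding, and no match says only that these letters are not in this window.

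The 250 bases before the start are shown for 4 genes on which later results turn or that show how the motifs lie, 5′ to 3′ on the gene's strand, with the motifs in capitals. Sdhb (chr4:140961021-140961270, plus strand) is the complex II gene whose call depended on the scaling, and it holds an NRF1 motif. Its window also holds an ETS motif, which is not within the bases shown. Atp5l (chr9:44920743-44920992, minus strand), subunit g of ATP synthase, holds NRF1, ETS and E-box motifs. Cox6a1 (chr5:115348959-115349208, minus strand), the liver form of subunit VIa, holds 2 overlapping NRF1 matches and an ETS motif next to the start. Atp5o (chr16:91931631-91931880, minus strand) was called lower among luc tumours and has none of the 4 in its window.
Sdhb: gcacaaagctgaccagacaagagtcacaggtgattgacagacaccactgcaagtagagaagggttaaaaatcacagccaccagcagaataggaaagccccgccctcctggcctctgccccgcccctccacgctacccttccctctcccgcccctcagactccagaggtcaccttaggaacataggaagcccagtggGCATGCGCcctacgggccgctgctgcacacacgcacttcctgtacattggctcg
Atp5l: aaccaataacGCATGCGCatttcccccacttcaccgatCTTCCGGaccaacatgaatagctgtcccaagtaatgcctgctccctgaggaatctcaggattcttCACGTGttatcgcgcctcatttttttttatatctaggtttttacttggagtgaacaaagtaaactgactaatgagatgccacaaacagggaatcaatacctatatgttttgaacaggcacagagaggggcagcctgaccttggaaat
Cox6a1: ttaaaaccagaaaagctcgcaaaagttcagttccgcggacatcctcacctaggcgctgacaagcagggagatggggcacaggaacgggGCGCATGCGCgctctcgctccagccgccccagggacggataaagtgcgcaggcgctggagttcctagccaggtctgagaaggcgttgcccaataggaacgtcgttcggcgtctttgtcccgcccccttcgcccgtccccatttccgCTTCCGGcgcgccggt
Atp5o: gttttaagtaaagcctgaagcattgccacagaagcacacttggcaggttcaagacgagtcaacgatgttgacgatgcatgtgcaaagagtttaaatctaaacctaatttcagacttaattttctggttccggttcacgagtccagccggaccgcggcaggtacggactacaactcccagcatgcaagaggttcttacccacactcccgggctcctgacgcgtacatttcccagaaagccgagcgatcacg

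Genes with and without a motif had close medians in the luc tumours of set 1. The median difference between drivers was −0.29 for the 10 genes with NRF1 letters and −0.33 for the 57 tested genes without, −0.30 and −0.33 for ETS, −0.31 and −0.33 for YY1, and −0.23 and −0.33 for the E-box. In set 2 the medians for NRF1 were 0.07 with and 0.005 without, and for YY1 −0.09 with and 0.04 without. For ETS they were −0.04 and 0.02, and for the E-box 0.05 and 0.009. Among lucOS tumours of set 1 they were −0.08 and −0.17 for NRF1, and −0.12 and −0.17 for ETS. There YY1 had −0.175 and −0.16, and the E-box −0.12 and −0.17. These medians are descriptions, with no test.

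Values below are the normalized counts of the deposited tables. A difference is β-catenin minus p53, or lucOS minus luc, on the scale of log2(value + 1), with its standard error (SE) from limma. A gene was called at a Benjamini-Hochberg adjusted p under 0.05 over all tested genes. Genes entered the test when they reached a value of 10 in at least 2 tumours of set 1 or 3 of set 2. This left 81 of the 84 respiratory chain genes in set 1 and 82 in set 2.

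The chain was abundantly expressed. Its 84 genes took between 1.17% and 2.11% of all gene reads in the tumours of set 1, and between 1.59% and 2.08% in set 2. Per kilobase of transcript, Atp5b, the catalytic β subunit of ATP synthase, was highest in both sets, with a mean of 50812 in set 1 and 56071 in set 2. Atp5a1, the α subunit that forms the catalytic ring with it, was at 30389 and 29960 per kilobase, and Atp5g3, which encodes the membrane ring subunit c, stood at 29331 and 30078. Cox4i1 led complex IV with 27227 and 28342 per kilobase, and Uqcr11 led complex III with 17985 and 16728. Ndufa4 had the highest level under a complex I name, 12794 and 13574 per kilobase. The median gene of complex V was at 10371 per kilobase in set 1 and that of complex I at 4501.

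At the other end, Cox7b2 and Cox8c, isoforms typical of testis, had no read in any of the 22 tumours. With 3 reads as the floor, this allows a normalized value of up to 4.07 in set 1 and 3.56 in set 2, for counting error only. Cox8b, the muscle and brown fat form of subunit VIII, had 16 reads in all over 8 tumours of set 1, and 605 reads over 5 tumours of set 2.

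In set 1 the 5 complexes mostly lay on the same side of their means within a tumour. For each tumour, a gene's deviation is its log2 value minus the gene's mean over the set, and the level of a complex is the median deviation of its tested genes. In set 1 the level over all tested chain genes was 0.47 in luc p53 tumour 1 and 0.36 in tumour 3, the highest of the set, but −0.13 in luc p53 tumour 2. It was 0.15, 0.10 and −0.30 in the lucOS p53 tumours. It was 0.05, 0.03, −0.37 and −0.01 in the luc β-catenin tumours, and −0.19 and −0.20 in the lucOS β-catenin tumours. Tumours of 1 genotype differed as much as the genotypes did, and the genotypes overlapped.

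In luc β-catenin tumour 3, every complex was below its set mean, from −0.28 for complex I to −0.48 for complex V. Luc p53 tumour 1 showed the opposite, from 0.36 for complex II to 0.53 for complex IV. In set 2 the levels lay closer together, from −0.17 in lucOS p53 tumour 1 to 0.23 in lucOS p53 tumour 4. The 6 β-catenin tumours of set 2 all lay between those 2 p53 tumours, from −0.09 to 0.08. In bulk tissue, fewer cells of a type and less RNA per cell cannot be told apart.

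**Figure D1:**
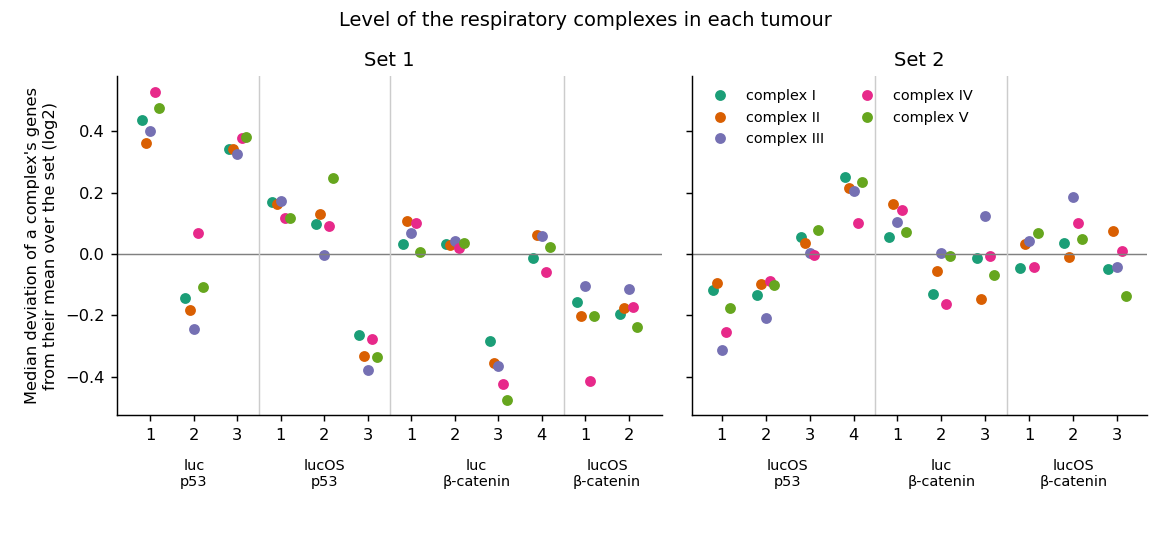
Level of each respiratory complex in each tumour of set 1 (left) and set 2 (right). The y axis is the median over a complex's tested genes of the log2 value minus the gene's mean over the set, and each point is 1 complex in 1 tumour, numbered by replicate within its group. In the highest and lowest tumours of set 1 the 5 points lie on 1 side of 0, from 0.36 to 0.53 in luc p53 tumour 1 of set 1 and from −0.48 to −0.28 in luc β-catenin tumour 3.

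Among luc tumours of set 1, the chain was slightly lower with β-catenin than with p53 loss in the deposited scaling. Of 81 tested genes, 4 were called lower and 0 higher, against a background of 9.16% of all tested genes called lower and 5.93% called higher. The share of chain genes called lower was thus below the background. At an unadjusted p under 0.05, 15 were lower and 0 higher, against 3403 lower and 1834 higher of all 16108 tested genes. Of the chain genes 76 of 81 lay below 0, against 9822 of all 16108. The median difference was −0.33, while the median of all tested genes was itself −0.20. Rescaled by TMM factors (trimmed mean of M values, a correction for composition), the medians moved to −0.15 for the chain and −0.01 for all genes, and no chain gene was called. Over all tested genes the split moved from 956 higher and 1475 lower to 1228 higher and 685 lower.

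The called genes were Atp5a1, Atp5o, Cox4i2 and Cox8a. In the RefSeq annotation of GRCm38.p6, Atp5o spans chr16:91925223-91931630, Cox4i2 chr2:152753916-152765039 and Cox8a chr19:7215158-7217616. Atp5a1 stood at 98516, 95419 and 120401 in the luc p53 tumours and at 64003, 67117, 47972 and 68435 in the luc β-catenin tumours. The groups did not overlap. The difference was −0.77 (SE 0.23, limma adjusted p = 0.0434). Its adjusted p was 0.119 after TMM rescaling and 0.107 by the edgeR quasi-likelihood test, with differences of −0.58 and −0.57, and 0.04 by DESeq2. None of the 7 fits that left out 1 tumour kept the call, at adjusted p from 0.0648 to 0.122.

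Atp5o encodes the oligomycin sensitivity protein, which ties the catalytic head of ATP synthase to its outer stalk. It stood at 15664, 10686 and 15690 in the luc p53 tumours, and at 9481, 9494, 7046 and 9381 in the luc β-catenin tumours. The lowest p53 tumour was just above the highest β-catenin tumour. The difference was −0.65 (SE 0.19, limma adjusted p = 0.0427), with an adjusted p of 0.142 and a difference of −0.46 after TMM rescaling. Of the 7 fits that left out 1 tumour, only the fit without luc p53 tumour 2 called Atp5o, and the adjusted p over the 7 ran from 0.0342 to 0.145.

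Cox8a, the common form of the small subunit VIII, stood at 18512, 13251 and 17823 against 12156, 11481, 8002 and 10475, again without overlap. Its difference was −0.65 (SE 0.20, limma adjusted p = 0.0475), and −0.47 with an adjusted p of 0.154 after TMM rescaling. Of the 7 fits with a tumour left out, 1 called it, the fit without luc β-catenin tumour 1.

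Cox4i2 is the minor isoform of subunit IV, typical of lung, and it was at most 0.71% of the COX4 reads in any tumour of set 1. It stood at 91.0, 108 and 102 in the luc p53 tumours, and at 23.8, 19.6, 40.3 and 18.5 in the luc β-catenin tumours. The groups were far apart, and the difference was −1.997 (SE 0.59, limma adjusted p = 0.045). It was −1.81 with an adjusted p of 0.069 after TMM rescaling and −1.79 with 0.0182 by DESeq2. None of the 7 fits with a tumour left out kept the call, at adjusted p from 0.0602 to 0.116. Its partner Cox4i1, the common form, was at 25497, 21622 and 26407 against 20963, 22649, 17008 and 20417, and was not called.

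The same direction was seen for Cox4i2 in set 2 without reaching the threshold. The lucOS p53 tumours stood at 69.4, 63.5, 65.7 and 57.0, the lucOS β-catenin tumours at 32.7, 11.6 and 18.1, and the luc β-catenin tumours at 24.2, 5.82 and 29.0. Every β-catenin tumour was below every p53 tumour, and the difference among lucOS tumours was −1.69 (SE 0.55, limma adjusted p = 0.0617). DESeq2 called it at −1.46 (adjusted p = 0.0433), as did a fit of only the compared groups (0.0361) and a pseudocount of 10 in place of 1 (0.0344). In the lucOS tumours of set 1 it did not follow, with 63.5, 22.9 and 56.1 for p53 loss and 27.6 and 157 for β-catenin. There lucOS β-catenin tumour 2 decided the sign, since the difference was 0.60 with it and −0.64 without it.

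Rgs5, a pericyte gene chosen after its values were seen, was also lower with β-catenin among luc tumours of set 1. Its values in set 2 are not given here. It stood at 1170, 1509 and 1908 in the luc p53 tumours against 201, 470, 478 and 596 in the luc β-catenin tumours, a difference of −1.89 (limma adjusted p = 0.0488). It reached 1860 in lucOS β-catenin tumour 2 of set 1, the tumour with the highest Cox4i2, against 385 in lucOS β-catenin tumour 1. Of the 13 endothelial and stellate cell markers, 1 was called lower and 0 higher among luc tumours, against backgrounds of 9.16% and 5.93%. None was called among lucOS tumours of set 1 (backgrounds 2.59% and 1.62%). In set 2, 2 were called lower and 1 higher (backgrounds 10.9% and 6.08%). Among luc tumours 6 of the 13 lay above and 7 below 0. The split was 11 and 2 among lucOS tumours of set 1, and 5 and 8 in set 2. Their summed value was 7170 to 26764 in luc p53 and 9357 to 32469 in luc β-catenin tumours, and 11428 to 16865 in lucOS p53 and 4865 to 12994 in lucOS β-catenin tumours of set 2. The part of these cells in the Cox4i2 difference was not tested.

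Among lucOS tumours no difference between the drivers reached the threshold in set 1. None of 81 chain genes was called by limma, against a background of 1.62% higher and 2.59% lower. The edgeR test also called 0 chain genes, against 293 higher and 125 lower of all 16108 tested genes. DESeq2 called 1, Atp5s, higher by 0.73 with an adjusted p of 0.0201, against 1046 higher and 985 lower. At an unadjusted p under 0.05, 2476 of all 16108 tested genes were lower and 1333 higher. Of the chain genes 3 were lower and 0 higher, all of complex V. These were Atp5g2 at −0.57, Atp5h at −0.57 and Atp5o at −0.52, with limma adjusted p of 0.194 for Atp5o and 0.207 for Atp5h. The median of the chain, −0.16, was close to the median of all tested genes, −0.15. TMM rescaling moved the split over all genes from 261 higher and 417 lower to 326 higher and 202 lower.

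In set 2, among lucOS tumours, 1 chain gene was called lower and 0 higher of 82, against a background of 10.9% of all genes called lower and 6.08% higher. The called gene was Ndufa13, also known as GRIM-19, an accessory subunit of complex I. It stood at 3991, 3560, 3813 and 4043 in the lucOS p53 tumours and at 2935, 2909 and 2857 in the lucOS β-catenin tumours. The groups were well apart, and each was tight. The luc β-catenin tumours of the same set, at 2988, 2665 and 3073, were also below every p53 tumour. The difference was −0.41 (SE 0.11, limma adjusted p = 0.032). After TMM rescaling it was −0.26 with an adjusted p of 0.138, and by DESeq2 −0.26 with 0.0484. Of the 7 fits with a tumour left out, 1 called it, the fit without lucOS p53 tumour 2. In the tumours named JAX alone the difference was −0.48 with an adjusted p of 0.555, in a fit where the lone p53 tumour was assumed to vary like the other groups. In set 1 Ndufa13 differed by −0.44 (limma adjusted p = 0.0935) among luc tumours and by −0.24 (adjusted p = 0.512) among lucOS tumours.

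The scaling decided which chain genes were called in this comparison. The chain's median difference was 0.02, while the median of all genes was −0.16, and after TMM rescaling the medians were 0.17 and −0.01. Over all genes the split moved from 950 higher and 1706 lower to 1287 higher and 1059 lower. Sdhb, the iron-sulfur subunit of complex II, stood at 5227, 5469, 7806 and 7773 in the lucOS p53 tumours and at 8592, 9311 and 8928 in the lucOS β-catenin tumours, with no overlap. Its difference was 0.47 (SE 0.17, limma adjusted p = 0.0798) as deposited. It was 0.62 with an adjusted p of 0.0397 after TMM rescaling, 0.59 with 0.0499 after median centring and 0.60 with 0.0475 by edgeR, each of which called Sdhb and no other chain gene. DESeq2 called 6 chain genes higher (Sdhb, Ndufa8, Ndufs5, Atp5e, Atp5s and Cox7a1) and 2 lower (Ndufa13 and Cox4i2). Over all 15625 tested genes DESeq2 called 2131 higher and 1711 lower, edgeR 1336 and 894, and median centring 1195 and 1116. The share of chain genes called was below that of all genes in each. In set 1 the difference of Sdhb was −0.06 (adjusted p = 0.876) among luc tumours and 0.06 (adjusted p = 0.925) among lucOS tumours.

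**Figure D2:**
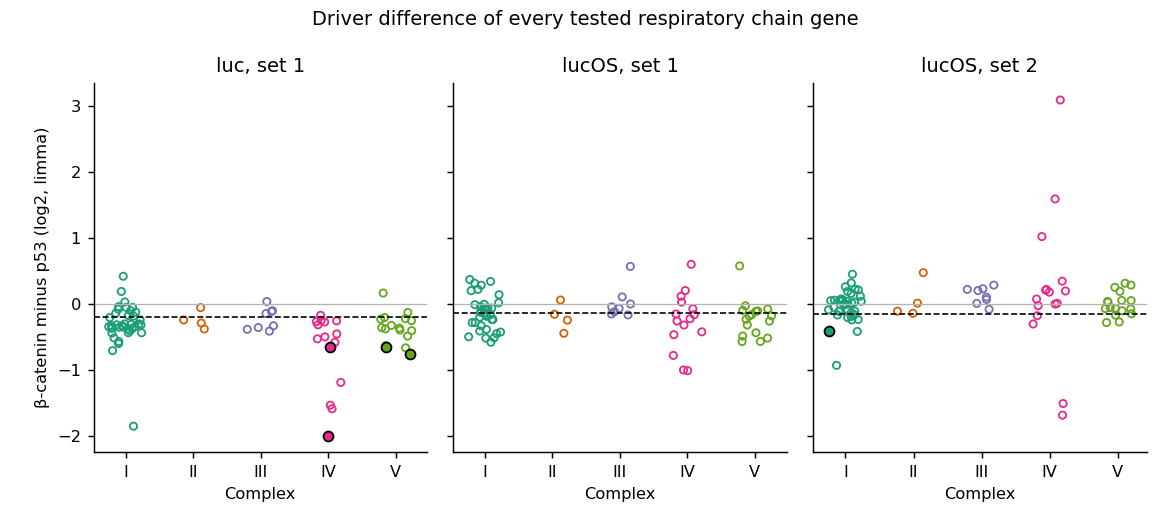
Difference between β-catenin and p53 tumours for every tested respiratory chain gene, by complex, in the 3 driver comparisons. The y axis is the log2 difference from limma, filled points are called genes (4, 0 and 1 from left to right) and the dashed line is the median of all tested genes (−0.20, −0.15 and −0.16). The points far from 0 are minor isoforms of complex IV and Ndufa4l2.

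Most chain genes differed little between drivers, and their intervals were narrow. The 95% interval of the driver difference lay wholly within a 2.0-fold change either way for 64 of 81 genes (79.0%) among luc tumours, for 60 of 81 (74.1%) among lucOS tumours of set 1, and for 75 of 82 (91.5%) in set 2. Over all tested genes the shares were 32.6%, 26.7% and 41.7%. Over tested genes with a mean of at least 1000, a fairer yardstick for abundant genes, they were 53.1%, 45.5% and 64.8%. An estimated change of more than 2.0-fold was seen for 5, 2 and 5 chain genes, against 3968 of 16108, 3869 of 16108 and 3634 of 15625 tested genes. Every such chain gene was a minor isoform: Cox4i2, Cox6a2, Cox6b2, Cox7a1, Cox8b or Ndufa4l2. In set 2 Cox8b was at 2.4 or below in every p53 tumour. It passed the filter only through β-catenin tumours, so its place in this count is not separate support for a difference.

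The same held for the spread over tumours regardless of genotype. The median standard deviation of log2 values was 0.31 for chain genes in set 1, against 0.56 for all tested genes and 0.38 for those with a mean of at least 1000. In set 2 the medians were 0.20, 0.47 and 0.32. The steadiest chain genes were Ndufa3 in set 1 (0.14) and Atp5j2, subunit f of ATP synthase, in set 2 (0.11). Both differences from the other genes are descriptions, since the members share tumours and depth.

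The 3 driver comparisons share no tumours. As deposited, 33 of 81 chain genes (40.7%) were lower with β-catenin in all 3, the same share as of all genes tested in both sets (40.5%), and 3 of 81 (3.7%) were higher in all 3, against 22.1% of all genes. After TMM rescaling, 9 (11.1%) were lower and 14 (17.3%) higher in all 3, against 4608 and 4644 of 15378 genes. The 3 genes higher in every comparison as deposited were Ndufa8, Ndufs5 and Uqcr11, and limma called none of them.

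Ndufa8, an accessory subunit of complex I on the intermembrane-space side, was the complex I gene with the largest positive difference in luc tumours of set 1 and in set 2. In set 1 it stood at 5478, 2844 and 4884 in the luc p53 tumours and at 8502, 4989, 4540 and 5298 in the luc β-catenin tumours, which overlapped. In set 2 it stood at 3477, 3997, 4844 and 5247 in the lucOS p53 tumours and at 7737, 6373 and 4187 in the lucOS β-catenin tumours, which also overlapped. The differences were 0.42 (limma adjusted p = 0.324), 0.34 (0.579) and 0.45 (0.173) in luc tumours of set 1, lucOS tumours of set 1 and set 2.

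By role, the core of complex I stayed close to the chain's median. The 6 core subunits Ndufs1, Ndufs3, Ndufs7, Ndufs8, Ndufv1 and Ndufv2, among the proteins that hold the flavin and the iron-sulfur centres, differed by −0.41 to −0.14 among luc tumours, by −0.39 to 0.20 among lucOS tumours of set 1 and by −0.21 to 0.19 in set 2. None was called. Among accessory subunits Ndufa5 was at −0.71 (limma adjusted p = 0.143) among luc tumours, the lowest under a complex I name after Ndufa4l2, and at −0.58 (0.378) among lucOS tumours of set 1.

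Complex II links the citric acid cycle to the chain. Sdha, its flavoprotein, stood at 30149, 24885 and 30019 in the luc p53 tumours of set 1 and at 26653, 24537, 19559 and 22058 in the luc β-catenin tumours. The groups overlapped, and the difference was −0.29 (limma adjusted p = 0.289). In set 2 it was 0.01 (0.983), with lucOS p53 tumours at 25197, 21686, 26082 and 31908 and lucOS β-catenin tumours at 22804, 22672 and 34487. The membrane anchors Sdhc and Sdhd differed by −0.25 and −0.38 among luc tumours and by −0.14 and −0.11 in set 2, and neither was called.

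In complex III, the core proteins Uqcrc1 and Uqcrc2 differed by −0.36 and −0.42 among luc tumours and by 0.06 and 0.20 in set 2. The Rieske iron-sulfur protein gene Uqcrfs1 differed by −0.33 and 0.00 in the same comparisons. Uqcr11, the smallest subunit, was the only complex III gene above 0 among luc tumours (0.03). It differed by 0.56 among lucOS tumours of set 1 (limma adjusted p = 0.231) and by 0.28 in set 2 (0.356). In the lucOS tumours of set 1 it stood at 4954, 4885 and 7224 with p53 loss and at 8931 and 7660 with β-catenin, without overlap.

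In complex V, 16 of 17 genes lay below 0 among luc tumours, with a median of −0.37. Beside the called Atp5a1 and Atp5o, the stalk subunit Atp5h differed by −0.67 (limma adjusted p = 0.0579) and the catalytic Atp5b by −0.63 (0.0868). In set 2 the same complex had 8 genes above and 9 below 0, a median of −0.06, and Atp5a1 differed by −0.07 (0.849), Atp5o by 0.03 (0.906) and Atp5b by −0.17 (0.485). Over complexes, the medians among luc tumours ran from −0.24 for complex III to −0.50 for complex IV, and in set 2 from −0.06 for complex V to 0.15 for complex III. No test of the difference between the sets was made, since the tables were normalized separately.

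The minor isoforms carried nearly all of the large differences, and at low levels. Ndufa4l2, the relative of Ndufa4 that is known to be induced by hypoxia, stood at 229, 758 and 380 in the luc p53 tumours of set 1 and at 51.0, 143, 206 and 101 in the luc β-catenin tumours, without overlap. The difference was −1.85 (SE 0.85, limma adjusted p = 0.155). In set 2 it stood at 172, 233, 143 and 183 in the lucOS p53 tumours and at 108, 63.9 and 120 in the lucOS β-catenin tumours, again without overlap, and the difference was −0.93 (SE 0.36, adjusted p = 0.101). In the lucOS tumours of set 1 both groups held a high tumour, 815 in lucOS p53 tumour 3 and 734 in lucOS β-catenin tumour 2. Ndufa4l2 made up 0.69% to 14.0% of the pair's reads in set 1 and 0.70% to 2.21% in set 2.

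Cox7a1 and Cox6a2 are the heart and skeletal muscle forms of subunits VIIa and VIa. Cox7a1 stood at 100, 259 and 62.3 in the luc p53 tumours of set 1 and at 18.1, 81.9, 30.4 and 47.1 in the luc β-catenin tumours, which overlapped (difference −1.59, limma adjusted p = 0.108). In set 2 the sign was opposite, with 53.8, 133, 50.7 and 79.6 in the lucOS p53 tumours and 58.2, 662 and 284 in the lucOS β-catenin tumours (difference 1.59, adjusted p = 0.196), which overlapped too. Without lucOS β-catenin tumour 2 the difference was 0.80 (0.514). Without lucOS β-catenin tumour 1 of set 2 limma called it, at 2.54 with an adjusted p of 0.0439, and with all tumours DESeq2 did, at 2.23 with 0.0196. Cox6a2 was lower with β-catenin in all 3 comparisons, by −1.19, −1.0035 and −1.51, and was called in none (limma adjusted p = 0.207, 0.445 and 0.29).

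The muscle marker list was read beside these isoforms, and a single gene made up most of its sum in the luc p53 tumours. Of 12 skeletal and heart muscle markers, 6 were tested among luc tumours of set 1, where 2 lay above and 4 below 0. Limma called 1 lower and 0 higher, against backgrounds of 9.16% and 5.93%. The called one was Ckm, muscle creatine kinase, at 1251, 4234 and 6025 in the luc p53 tumours against 7.93, 438, 3.58 and 43.4 in the luc β-catenin tumours (difference −6.73, limma adjusted p = 0.00818). The summed value of the 12 was 1522 to 6516 in luc p53 and 220 to 627 in luc β-catenin tumours, while the fast myosin Myh4 was at 1.4 or below in all of set 1. In set 2, 3 lay above and 3 below 0. Of the 6 tested there, limma called 1 lower and 1 higher, against backgrounds of 10.9% and 6.08%. Ckm was the lower one, at −4.39 (limma adjusted p = 0.00694). Actc1, the heart actin, was the higher one, at 3.64 (0.0274). It stood at 0 to 7.96 in the lucOS p53 tumours and at 24.7 to 158 in the lucOS β-catenin tumours. With every p53 tumour below the filter value of 10, Actc1 was tested only through β-catenin tumours. Its call is therefore not separate support for a difference. The summed value was 643 to 2998 in lucOS p53 and 319 to 462 in lucOS β-catenin tumours. The part of muscle RNA in the isoform differences was not tested.

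Cox6b2, the testis form of subunit VIb, stood at 63.8, 320 and 79.2 in the luc p53 tumours and at 54.4, 54.6, 22.4 and 37.9 in the luc β-catenin tumours of set 1 (difference −1.54, limma adjusted p = 0.218). It reached 4.94% of the COX6B reads in luc p53 tumour 2. In set 2 it ranged from 2.38 to 152 within the 4 lucOS p53 tumours alone, so no order between groups could be read. Of 9 testis germ cell markers 1 was tested in each set and none was called by limma. Their summed value was 42.3 to 113 in luc p53 tumours, and Prm1, a sperm protamine, was at 5.67 in luc p53 tumour 2 and 0 in every other tumour of set 1.

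**Figure D3:**
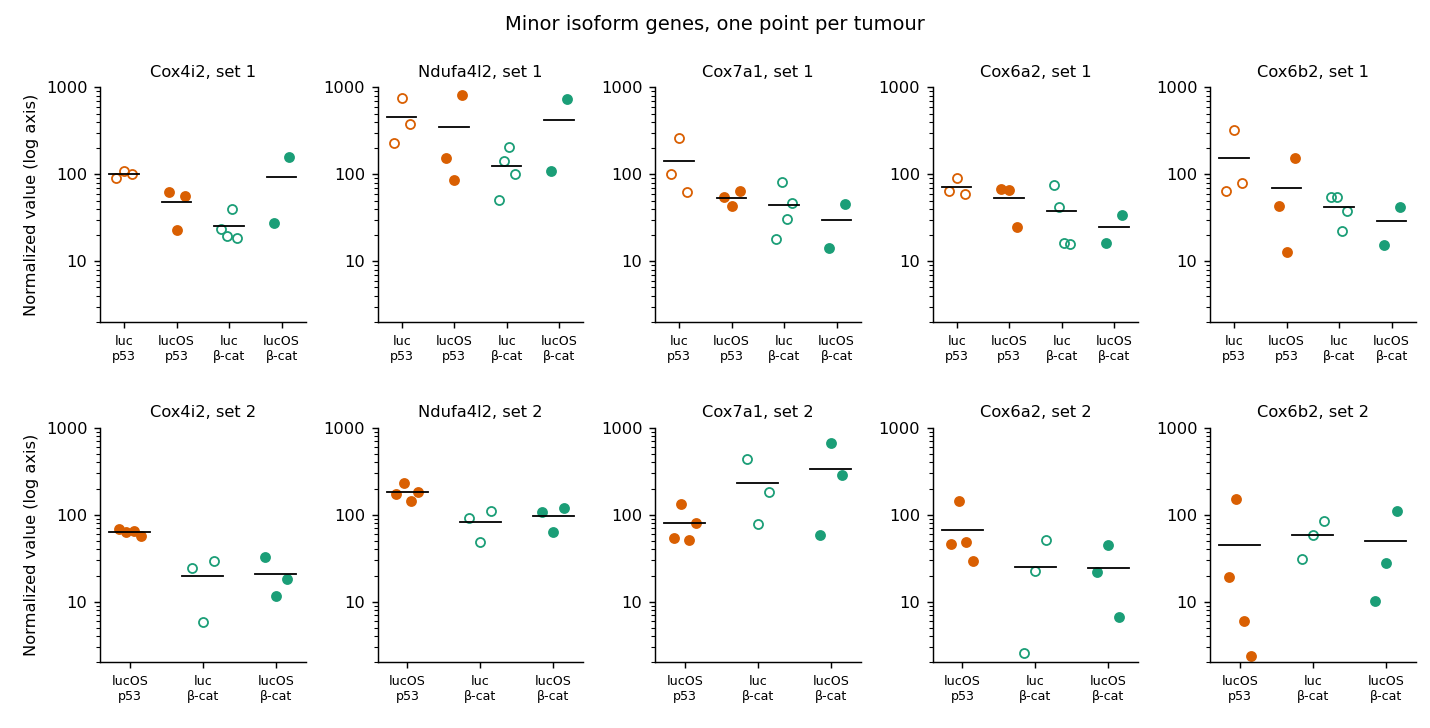
Normalized values of 5 minor isoform genes (log axis, the same range in all panels), set 1 above and set 2 below, with 1 point per tumour and a bar at the group mean. Open points are luc and filled points lucOS tumours, orange p53 and green β-catenin. In set 2 all 6 β-catenin tumours lie below the 4 p53 tumours for Cox4i2, whereas Cox7a1 is highest in lucOS β-catenin tumour 2 (662).

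Subunit c of ATP synthase is made from 3 genes, Atp5g1, Atp5g2 and Atp5g3, which encode the same mature protein behind different import signals. Atp5g3 held the largest share of their reads, 46.3% to 55.0% in set 1 and 52.0% to 72.4% in set 2. Atp5g1 held 19.3% to 27.3% in set 1 but 9.74% to 32.8% in set 2, where it was the most variable of the abundant chain genes. Its values in set 2 were 7910, 7127, 9575 and 10457 in the lucOS p53 tumours, 2887, 10801 and 12397 in the luc β-catenin tumours and 7967, 10450 and 4404 in the lucOS β-catenin tumours. Luc β-catenin tumour 1 and lucOS β-catenin tumour 3 were thus below all 8 others, while in them Atp5g2 was at 5285 and 4932 and Atp5g3 at 21481 and 18280. The Atp5g2 value of 4932 was the lowest of the set for that gene, and neither Atp5g3 value was. The driver difference of Atp5g1 in set 2 was −0.28 (SE 0.48, limma adjusted p = 0.714). The genes share close coding sequence, and how reads matching several places were counted is not given in the sources used here, so the split between them is uncertain.

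The same pair of tumours held Cox8b, at 302 and 195, against 0 to 11.6 in the other 8 tumours of set 2. Every tumour of set 2 had reads of 3 to 6 of the 7 fat markers listed. Cidea, Plin1 and Adipoq were far higher in this pair, and values of Fabp4 and Cfd are not given here. Cidea, a lipid droplet protein of brown fat, was at 9543 and 2101 against 17.5 or less elsewhere. Plin1, the perilipin of fat cells, was at 1444 and 188 against 8.5 or less, and Adipoq, the fat hormone adiponectin, at 291 and 197 against 2.0 or less. Ucp1, which defines thermogenic brown fat, was at 0 and 0.8, and Lep was at 0 in every tumour. Of 7 fat markers 3 were tested in set 2 and limma called none between drivers. At an unadjusted p under 0.05, 1 was higher, against 1846 of all 15625 tested genes. The sum of the 7 was 1815 to 3774 in lucOS p53, 1273 to 13540 in luc β-catenin and 1445 to 5686 in lucOS β-catenin tumours. The part of these cells or genes in the Atp5g1 and Cox8b values was not tested. With the pair left out, which was decided after the values were seen, no chain gene was called in set 2.

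**Figure D4:**
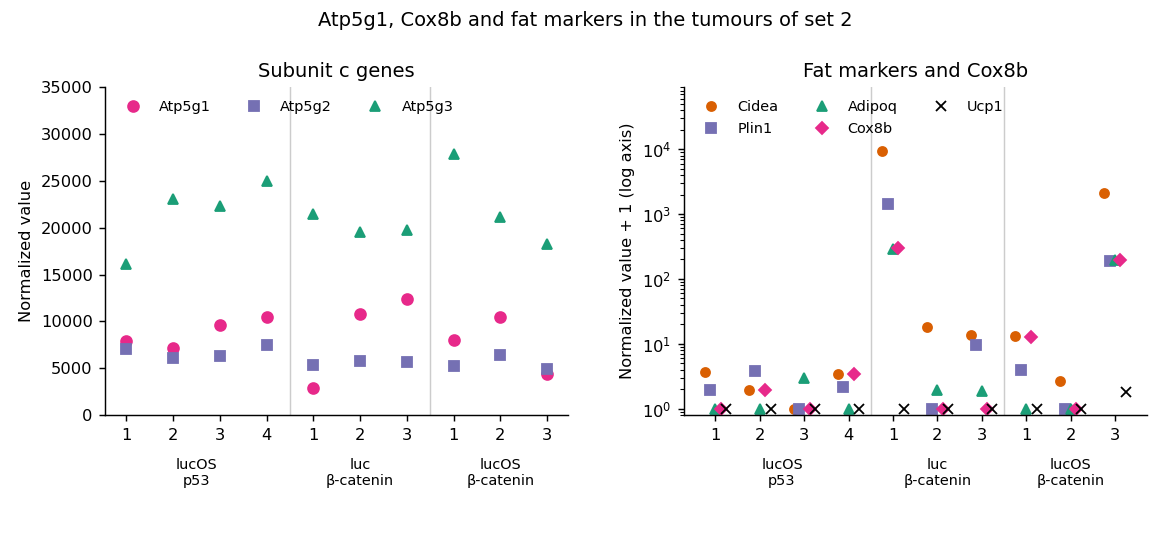
Values in the 10 tumours of set 2 of the 3 genes of subunit c (left, linear axis) and of Cox8b and 4 fat markers (right, value + 1 on a log axis), by group and replicate. Luc β-catenin tumour 1 and lucOS β-catenin tumour 3 have the lowest Atp5g1 (2887 and 4404) and the highest Cidea, Plin1, Adipoq and Cox8b, while Ucp1 is at or near 0 in all.

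The antigen comparisons asked whether the lucOS antigens went with a different level of the chain at a fixed driver. Among p53 tumours of set 1 (3 against 3), limma called none of 81 chain genes, as it called none of all tested genes (0.0% higher and 0.0% lower). The edgeR and DESeq2 tests called 0 chain genes too. At an unadjusted p under 0.05, 9 were lower and 0 higher with lucOS, against 361 lower and 361 higher of all 16108 tested genes. Of the chain genes 75 of 81 lay below 0, against 8068 of all 16108. The median was −0.28, against −0.0012 for all tested genes, and −0.24 against 0.03 after TMM rescaling. Of the marker lists, macrophage markers lay above 0 for 9 of 9 with a median of 1.06 and red blood cell markers below 0 for 7 of 8 with a median of −1.43, and limma called none of them. The summed macrophage markers were at 12617 to 17992 in lucOS p53 and 2797 to 16075 in luc p53 tumours, and the summed red blood cell markers at 2592 to 16165 and 5458 to 40067. Their part in the chain's difference was not tested. The smallest p belonged to Ndufa1, an accessory subunit of complex I, with a difference of −0.55 (SE 0.17, limma adjusted p = 0.952). It stood at 1407, 1309 and 1013 in the lucOS tumours and at 1970, 1647 and 1822 in the luc tumours, without overlap. The luc p53 tumours are also one arm of the driver comparison among luc tumours, where they were the higher group.

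The complex levels differed between the tumours of each arm. Luc p53 tumours 1 and 3 were high and lucOS p53 tumour 3 was low for every complex, whereas over all chain genes luc p53 tumour 2 was below lucOS p53 tumours 1 and 2. Leaving out 1 tumour at a time gave medians from −0.45 to −0.13.

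The same comparison was made among β-catenin tumours. In set 1 (2 lucOS against 4 luc), limma, edgeR and DESeq2 called 0 of 81 chain genes, 0 were below an unadjusted p of 0.05 and the median was −0.10, on a background of 0.0% called in either direction. In set 2 (3 against 3) the same tests called 0 of 82, 0 were below an unadjusted p of 0.05 and the median was 0.01, again on a background of 0.0%. The 95% interval lay within a 2.0-fold change for 76 of 81 (93.8%) and 75 of 82 genes (91.5%), against 45.2% and 54.4% of all tested genes and 73.9% and 81.1% of those with a mean of at least 1000. With p53 loss the count was 66 of 81 (81.5%), against 43.5% of all tested genes and 70.9% of those with a mean of at least 1000.

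The interaction in set 1 tested whether the driver difference itself differed between lucOS and luc tumours. By limma 0 of 81 chain genes were called, with 0.0% of all genes called higher and 0.0% lower, and edgeR and DESeq2 also called 0. At an unadjusted p under 0.05, 184 of all 16108 tested genes were higher and 252 lower. Of the chain genes 2 were higher and 0 lower. These were Cox4i2 at 2.59 (SE 0.93, adjusted p = 1.0) and Ndufa1 at 0.55 (SE 0.25, adjusted p = 1.0). The median was 0.14.

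The genes around the chain were read from lists chosen with earlier results of these data known. Of 5 subunits or partners that the name rule leaves out, 2 were called lower among luc tumours, 0 among lucOS tumours of set 1 and 1 lower in set 2, with backgrounds called lower of 9.16%, 2.59% and 10.9%. Usmg5, a small subunit of ATP synthase, was the one called in both sets. It stood at 7743, 3679 and 5302 in the luc p53 tumours and at 2898, 3064, 2351 and 3256 in the luc β-catenin tumours (difference −0.89, limma adjusted p = 0.0316). In set 2 it stood at 8993, 5204, 6445 and 6814 with p53 loss and at 4583, 4712 and 3754 with β-catenin among lucOS tumours (difference −0.64, adjusted p = 0.042). Neither comparison overlapped. After TMM rescaling the adjusted p of Usmg5 was 0.082 and 0.0988. The other was 2010107E04Rik, a small proteolipid of the same enzyme, lower by −0.79 (adjusted p = 0.0228, and 0.0706 after TMM rescaling).

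Of 18 regulators of mitochondrial biogenesis, 5 were called lower and 0 higher among luc tumours (against the 9.16% background), 2 lower among lucOS tumours of set 1 (2.59%) and 0 in set 2 (10.9%). The median difference among luc tumours was −0.56. Nrf1, a transcription factor of the chain's promoters, stood at 1335, 1759 and 1437 in the luc p53 tumours and at 1009, 958, 831 and 1016 in the luc β-catenin tumours (difference −0.66, limma adjusted p = 0.0223). Among lucOS tumours of set 1 it was lower by −0.80 (adjusted p = 0.0449) and in set 2 by −0.52 without being called (adjusted p = 0.0559). In each of the 3 comparisons every β-catenin tumour was below every p53 tumour. After TMM rescaling Nrf1 was called in neither comparison of set 1 (adjusted p = 0.0802 and 0.083).

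The coactivators of the PGC-1 family and 2 mitochondrial RNA and DNA binding proteins made up the rest. Pprc1, a coactivator of Nrf1, differed by −1.35 (limma adjusted p = 0.00993) and Slirp, which stabilises mitochondrial messenger RNA, by −1.43 (0.00993) among luc tumours. Both calls were kept in all 7 fits with a tumour left out and in every other alternative run for them. Ppargc1b, the coactivator PGC-1β, differed by −1.41 (0.0223) among luc tumours and by −1.66 (0.0488) among lucOS tumours of set 1. Ssbp1, which binds single-stranded mitochondrial DNA, differed by −0.77 (0.0334). In set 2 Pprc1 differed by −0.97 (0.0507), Slirp by −0.58 (0.0846) and Ppargc1b by −0.82 (0.138), none of them called. With 1 tumour left out, Nrf1 kept its call in 5 of 7 fits among luc tumours and in 0 of 5 among lucOS tumours of set 1, and Ppargc1b in 0 of 5 among the latter. Tfam, which packages and transcribes mitochondrial DNA, differed by −0.57, −0.51 and −0.58 in the 3 comparisons and was called in none (adjusted p = 0.0991, 0.27 and 0.0678).

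Of 15 genes of electron entry and ubiquinone synthesis, 2 were called higher and 0 lower among luc tumours, 0 among lucOS tumours of set 1, and 2 higher and 0 lower in set 2. The backgrounds called higher were 5.93%, 1.62% and 6.08%. Coq3 and Etfb were the genes called in both sets. Coq3, a methyltransferase of ubiquinone synthesis, stood at 516, 677 and 1039 in the luc p53 tumours and at 1507, 2399, 1512 and 2092 in the luc β-catenin tumours (difference 1.36, limma adjusted p = 0.038). In set 2 it stood at 522, 1098, 920 and 1123 with p53 loss and at 3059, 2751 and 2247 with β-catenin among lucOS tumours (difference 1.60, adjusted p = 0.00635). Etfb, which hands electrons from fatty acid oxidation towards ubiquinone, was higher by 0.87 (0.0222) and 0.97 (0.0347). In the tumours named JAX alone the set 2 differences were 1.25 (0.199) for Coq3 and 0.61 (0.528) for Etfb, neither called.

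Of 40 tested assembly factors of 42 listed, 1 was called higher among luc tumours, 0 among lucOS tumours of set 1, and 2 higher and 1 lower in set 2. These shares were below the backgrounds of 5.93% higher among luc tumours and of 6.08% higher and 10.9% lower in set 2. The first was Ndufaf3, a complex I factor, at 0.86 (limma adjusted p = 0.0416). In set 2 these were Ttc19, needed by complex III, at 0.80 (0.0298), and the ATP synthase factors Atpaf1 at 0.51 (0.0367) and Atpaf2 at −0.66 (0.0389). In the citric acid cycle and pyruvate dehydrogenase list, 3 of 16 genes were called lower and 0 higher among luc tumours, against backgrounds of 9.16% and 5.93%. The called genes included Dld at −0.85 (0.0136) and Idh3b at −0.69 (0.0278). None of the 16 was called among lucOS tumours of set 1, nor any of the 13 tested in set 2. Of 9 carriers and related genes, 1 was called higher and 1 lower among luc tumours, against backgrounds of 5.93% and 9.16%. These were Ucp2, an inner membrane carrier, at 1.97 (0.0222), and the outer membrane channel Vdac2 at −0.57 (0.0469). None of the 9 was called among lucOS tumours of set 1. In set 2, 1 was called higher (background 6.08%) and 0 lower, the ADP/ATP carrier Slc25a5 at 0.80 (0.012). Besides Slirp and Pprc1, the calls of Coq3 and Slc25a5 in set 2 were kept in all 7 fits with a tumour left out. The calls of Usmg5 (2 of 7 fits in set 1, 1 of 7 in set 2), 2010107E04Rik (4 of 7), Etfb (4 and 3 of 7), Coq3 in set 1 (2 of 7), Dld (5 of 7), Idh3b (1 of 7), Ucp2 (2 of 7), Vdac2 (1 of 7), Ndufaf3 (0 of 7), Ttc19 (2 of 7), Atpaf1 and Atpaf2 (1 of 7 each) were not. In the tumours named JAX alone none of the set 2 calls was kept, with differences of 0.51 for Slc25a5 (adjusted p = 0.598), −0.65 for Usmg5 (0.497), 0.54 for Ttc19 (0.628), 0.36 for Atpaf1 (0.657) and −0.52 for Atpaf2 (0.627). No gene of these lists was called by limma in the antigen comparisons or the interaction.

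Other cell types were followed by the remaining marker lists. Among luc tumours of set 1, 5.93% of all tested genes were called higher and 9.16% lower. There 1 of 9 hepatocyte markers tested was called higher (Alb, 1.58, limma adjusted p = 0.021), as were 2 of 9 macrophage markers. None of 7 T and NK cell markers and none of 8 red blood cell markers was called. Among lucOS tumours of set 1 none of these lists held a called gene (backgrounds 1.62% higher and 2.59% lower). The summed hepatocyte markers were at 513978 to 863325 in luc p53 and 1175336 to 1450234 in luc β-catenin tumours. In set 2, 6.08% of all tested genes were called higher and 10.9% lower among lucOS tumours. Of the markers, 0 of 9 hepatocyte and 0 of 8 red blood cell markers were called. Of 9 macrophage markers 2 were called higher and 1 lower. Of 8 T and NK cell markers 7 were called lower, their sum being 365 to 830 with p53 loss and 124 to 128 with β-catenin. The part of these cell types in the chain's differences was not tested.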

How the data were processed

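Total RNA of 22 liver tumours had been sequenced. Per the submitters' processing notes, the tools were TopHat2, featureCounts and DESeq2 with the mm10 build. Versions and the handling of strand and of reads that match several places are not given in the sources used here. The authors deposited 2 tables of normalized counts per gene (a signal that is each count divided by a size factor), 1 for each set, normalized separately, so no test crosses the sets. Whole reads could be recovered: in the tumour with the lowest share, 100.0% of values came out whole within 0.01 reads. The set 1 table held 33068 transcripts, and each gene was represented by its transcript with the highest mean. In set 1, 53 symbols turned into dates by spreadsheet software were restored, and in set 2, 27 such rows were left out.

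Values were tested as log2(value + 1) with limma 3.58.1 (R 4.3.3, eBayes with a trend), all groups of a set in 1 fit, with Benjamini-Hochberg adjustment over all tested genes and a call at 0.05. Genes needed a value of 10 in 2 tumours of set 1 or 3 of set 2. The test was tried on simulated data. Named genes were Trp53, every chain gene called, the 3 with the largest difference per direction and comparison, the isoform families, Sdha to Sdhd, the highest gene of each complex, and up to 3 called genes per list and direction. Other genes were chosen after their values were seen. The members and lists were chosen with earlier results of these data known.

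The alternatives were TMM rescaling, median centring, edgeR 4.0.16 (quasi-likelihood) and DESeq2 1.42.0 on recovered reads, pseudocounts of 10 and 0.1, no filter, only the compared groups, each tumour left out, transcripts summed and the tumours named JAX. Leaving out the 2 tumours of set 2 with high Cidea, Plin1 and Adipoq was added after seeing the data. For the 3 driver comparisons (luc set 1, lucOS set 1, lucOS set 2), edgeR called 1110, 293 and 1336 genes higher and 675, 125 and 894 lower, and DESeq2 called 1881, 1046 and 2131 higher and 1422, 985 and 1711 lower. Results for some genes are not reported here.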

Additional observations from a re-analysis of the deposited data

Results flagged for a closer look

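In 77 groups of values tested for a sample far from the others, 7 stood out, and chance alone gives about 1 in 20. All 7 were low values of the same tumour, luc β-catenin tumour 3 of set 1. The flags are therefore not independent, and their number cannot be weighed against that rate. For single genes these were Atp5g3 at 14772, Atp5o at 7046 and Sdhc at 5143. For the levels of the complexes they were −0.283 for complex I, −0.356 for complex II, −0.367 for complex III and −0.475 for complex V. Without that tumour Atp5o differed between drivers by −0.55 among luc tumours of set 1, with a limma adjusted p of 0.102. The cause was not tested.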

How the results depend on the processing

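The count of chain genes called between drivers among luc tumours of set 1, 4 in the values reported, was 0 with TMM rescaling, median centring, edgeR or no filter, 2 with DESeq2 or only the compared groups, and 0 to 2 with 1 tumour left out. Among lucOS tumours of set 1 it was 1 with DESeq2 against 0. In set 2, where it was 1, it became 8 with DESeq2, which called 2131 of all tested genes higher and 1711 lower. The count in set 2 was 2 with a pseudocount of 10 or only the compared groups. It was 0 without the 2 tumours with high Cidea, Plin1 and Adipoq, and 0 to 1 with 1 tumour left out. The median difference there, 0.02, was 0.17 with TMM rescaling, edgeR or DESeq2, −0.23 in the tumours named JAX, and −0.04 to 0.11 with 1 tumour left out. The medians with 1 tumour left out ran from −0.51 to −0.22 among luc tumours, from −0.31 to −0.07 among lucOS tumours of set 1, from −0.21 to −0.07 and −0.02 to 0.06 for the antigen in β-catenin tumours of set 1 and set 2, and from 0.00 to 0.33 for the interaction. Signs turned for Atp5sl among luc tumours without luc p53 tumour 2 (−0.0055, range with 1 tumour left out −0.0055 to 0.28), and among lucOS tumours of set 1 for Cox6b2 without lucOS p53 tumour 3 (0.091, range −1.64 to 0.091) and for Cox4i2 without lucOS β-catenin tumour 2 (−0.64, range −0.64 to 1.83). The cause was not tested. Of the other values of named genes, 488 kept direction and side of the threshold, 202 lost the call and 6 gained one. No paired analysis was possible because the labels give no pairing of tumours between groups. Genes with few reads, such as Cox8b, are limited by depth.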
